A study of Mus musculus with 28 samples.

Results

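The 10 genes described here are 4 Wnt ligands and 6 genes that Wnt signalling is known to turn on. They were taken by symbol from the 37583 rows of 2 tables of gene expression, 1 for mouse embryonic stem cells (mESCs) and 1 for embryoid bodies (EBs), and each symbol had 1 row. The ligands were Wnt3 (ENSMUSG00000000125), Wnt3a (ENSMUSG00000009900), Wnt5a (ENSMUSG00000021994) and Wnt8a (ENSMUSG00000012282). The others were the secreted inhibitor Dkk1 (ENSMUSG00000024868), the intracellular feedback inhibitors Axin2 (ENSMUSG00000000142) and Nkd1 (ENSMUSG00000031661), the receptor Lgr5 (ENSMUSG00000020140), and the transcription factors Lef1 (ENSMUSG00000027985) and Sp5 (ENSMUSG00000075304). Values are RPKM, the reads per kilobase of a gene's transcript scaled to the reads of the library, so that levels of different genes can be set side by side.

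In the canonical Wnt pathway a secreted Wnt protein binds a Frizzled receptor and an Lrp co-receptor, which stops the destruction of β-catenin, and β-catenin then activates target genes together with Tcf and Lef proteins. Axin2, Nkd1, Dkk1, Sp5, Lef1 and Lgr5 are among these targets, and the first 3 of them damp the signal again. In the mouse embryo Wnt3 is required to form the primitive streak, where mesoderm and endoderm arise, and Wnt3a and Wnt8a are expressed in the streak and the tail end of the embryo. Wnt5a is known mainly for signalling that does not use β-catenin. In stem cells the same pathway helps to hold pluripotency, and culture media often contain an inhibitor of the kinase GSK3, which stabilises β-catenin without any ligand.

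The series holds 28 libraries of RNA depleted of ribosomal RNA, from the mouse ES cell lines CJ7 and CCE. EBs are aggregates of differentiating cells, here at day 5 after withdrawal of the cytokine LIF. CJ7 cells were Eed null (lacking a subunit of PRC2, the complex that methylates histone H3 at silent developmental genes), EloA K754R, EloA K754M (substitutions of 1 lysine in the elongation factor Elongin A) or wild type, with 2 EB and 2 mESC libraries each. CCE mESCs were EloA null or EloA wild type, with 3 libraries each. CCE EBs came in 3 groups of 2 libraries. In 1 of these, here pair B, the titles name a heterozygote and the data columns a null. In another, here pair A, the titles name a null and the columns a heterozygote, so neither is given a genotype, and the third is wild type. Per the labels' protocols all mESCs grew on mouse embryonic fibroblast feeders with LIF, 1 µM of the MEK inhibitor PD0325901 and 3 µM of the GSK3 inhibitor CHIR99021, and feeders were reduced by letting them attach before collection. Whether an inhibitor was present in EB medium, whether replicates were separate cultures and whether a genotype was 1 clone is not stated in the labels, so p-values measure the spread between libraries, which may be technical.

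Depth, estimated from the RPKM value of 1 read, was about 28700000 to 39900000 reads in CJ7 EBs, 23600000 to 30900000 reads in CCE EBs, 11100000 to 18200000 reads in CJ7 mESCs and 24400000 to 46300000 reads in CCE mESCs. Eed had 15.8 and 16.3 RPKM in Eed null EBs against 49.6 and 55.3 RPKM in wild type EBs, and 22.3 and 22.1 RPKM in Eed null mESCs against 105 and 119 RPKM in wild type mESCs. Tceb3, which encodes Elongin A, had 8.02, 6.33 and 6.17 RPKM in EloA null mESCs against 11.7, 11.2 and 10.7 RPKM in wild type CCE mESCs. Both were lower and neither was absent. The 8 pluripotency markers summed to 1293 to 2044 RPKM in mESC libraries and to 16.3 to 774 RPKM in EB libraries. Eed null EBs were the highest EB group, at 715 to 774 RPKM. The 8 primitive streak and mesoderm markers summed to 35.7 to 169 RPKM in EB libraries against 7.09 to 20.8 RPKM in mESC libraries. Both sums separated the stages, while Eomes, Gsc and Tbx6 of the streak list overlapped between them. Fibroblast markers summed to 276 to 1478 RPKM in the mESC libraries. In bulk RNA, fewer cells of a type and less RNA per cell cannot be told apart.

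Promoter sequences are shown for 3 targets, namely Sp5 and Dkk1, 2 of the 5 genes that fell in Eed null EBs, because their windows hold the motif, and Axin2 as a widely used readout of the pathway. They are RefSeq windows of 300 bases (250 before and 50 after the transcript start, build GRCm38.p6, the build of the sequence table and not that of the expression tables), given 5′ to 3′ on the strand of the gene. Capitals mark the core letters of a Tcf/Lef recognition motif, CTTTGA, or TCAAAG where it lies on the other strand. Sp5 lies at chr2:70474673-70474972 on the plus strand, Dkk1 at chr19:30549447-30549746 on the minus strand and Axin2 at chr11:108920099-108920398 on the plus strand.
Sp5: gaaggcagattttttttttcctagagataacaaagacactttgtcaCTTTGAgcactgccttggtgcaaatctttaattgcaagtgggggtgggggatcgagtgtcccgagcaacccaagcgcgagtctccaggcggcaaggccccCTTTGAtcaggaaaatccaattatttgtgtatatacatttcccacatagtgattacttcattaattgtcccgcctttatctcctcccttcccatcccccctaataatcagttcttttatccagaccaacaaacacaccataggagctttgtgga
Dkk1: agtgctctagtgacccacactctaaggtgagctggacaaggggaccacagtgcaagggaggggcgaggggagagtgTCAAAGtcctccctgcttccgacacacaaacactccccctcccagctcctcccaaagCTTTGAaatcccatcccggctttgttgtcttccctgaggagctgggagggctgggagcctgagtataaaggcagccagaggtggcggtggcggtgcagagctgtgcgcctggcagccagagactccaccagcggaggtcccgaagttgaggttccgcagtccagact
Axin2: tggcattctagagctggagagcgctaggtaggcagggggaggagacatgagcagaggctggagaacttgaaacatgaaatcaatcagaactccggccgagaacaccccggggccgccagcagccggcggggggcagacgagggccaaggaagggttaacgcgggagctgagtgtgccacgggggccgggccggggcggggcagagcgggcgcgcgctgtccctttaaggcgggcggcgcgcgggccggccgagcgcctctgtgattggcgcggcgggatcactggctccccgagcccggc
The Sp5 window holds the motif at positions -204 and -104 relative to the start, and the Dkk1 window at -174 and -117. The motif occurred in 16% of all 32851 windows in the table. Windows of 7 of the 10 genes were examined (Wnt3, Wnt3a, Axin2, Lef1, Sp5, Dkk1 and Nkd1). No window of Wnt5a, Wnt8a or Lgr5 was examined, so whether theirs hold the motif was not tested. Of the 10 windows examined, 4 of them of Lef1, 3 held it. The third was the Lef1 window at chr3:131156044-131156343. The windows of Wnt3 and Nkd1, which also fell in Eed null EBs, held no match. A match describes letters in the window and not a bound site, and the lack of a match in the Axin2 window says only that these letters are not in it. The GC content of the 10 windows ran from 43.7% to 86.3%, against a median of 52.7% over all windows.

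Most of the 10 genes were low in mESCs and far higher in EBs. In wild type CJ7 cells Dkk1, a blocker of Lrp co-receptors, had 18.9 and 21.9 RPKM in EBs against 0.149 and 0.455 RPKM in mESCs. Wnt3 had 11.5 and 14.7 RPKM in wild type EBs against 0.118 and 0.239 RPKM in wild type mESCs. In both cases every EB library of the line lay above every wild type mESC library. The change was tested with limma-trend on log2(RPKM + 0.5), a scale that shrinks the fold change of genes near 0.5 RPKM, with Benjamini-Hochberg adjustment over all genes tested and a call at an adjusted p below 0.05. It was 4.73 ± 0.24 log2 units for Dkk1 (± standard error, limma adjusted p = 3.27e-08) and 4.32 ± 0.23 for Wnt3 (limma adjusted p = 5.78e-08).

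Of the 10 genes 9 rose in wild type CJ7 EBs, where 17.2% of the 22818 genes tested were called higher, 25.2% lower and 42.4% in either direction. Lgr5 is among the 9, and its call is not read as a result, for a reason given below. Wnt8a had 5.70 and 4.92 RPKM in EBs, against 0 and 0.0422 RPKM in mESCs, which is 0 and 1 read. A count of 0 there allows up to 0.155 RPKM (the value of 3 reads, for counting error only). Its log2 change was 3.48 ± 0.21, a size that depends on the pseudocount because the mESC values are so near 0. The transcription factor Sp5 had 8.25 and 6.59 RPKM in EBs against 0.559 and 1.05 RPKM in mESCs, and the intracellular inhibitor Nkd1 had 4.47 and 5.53 RPKM in EBs against 0.426 and 0.363 RPKM in mESCs. Their log2 changes were 2.62 ± 0.56 and 2.61 ± 0.21. Lef1, a nuclear partner of β-catenin, rose by 2.33 ± 0.25, Axin2 by 2.25 ± 0.30, Wnt5a by 1.85 ± 0.52 and Lgr5, which binds R-spondins, by 1.75 ± 0.23. The Wnt5a call was lost without the first EB library or the first mESC library of the wild type, where the change was 1.59 and 1.28.

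Axin2 had the highest mESC mean of the 10 genes in 5 of 6 groups, all but K754R. In K754M mESCs its lead was small, at 1.76 against 1.65 RPKM for Wnt5a, which was higher in the second library. In K754R mESCs Sp5 led through its second library, at 12.1 RPKM. Axin2 had 10.9 and 10.9 RPKM in wild type CJ7 EBs against 2.20 and 1.63 RPKM in wild type mESCs. Over all libraries Axin2 ranged from 5.92 to 11.2 RPKM in EBs against 1.63 to 7.54 RPKM in mESCs. Lgr5, in contrast, was at most 0.152 RPKM in any mESC library and did not pass the filter on low values within the mESC fits, which asked for 0.25 RPKM in at least 2 libraries. In the CJ7 fit of both stages only EB libraries lifted Lgr5 over this filter, so its stage calls are not read as results.

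Wnt3a was the one gene of the 10 with lower means in wild type EBs than in wild type mESCs. Wild type CJ7 libraries had 0.161 and 0.0678 RPKM in EBs against 0.164 and 1.04 RPKM in mESCs, and the difference did not pass the test (-0.72 ± 0.34, limma adjusted p = 0.109). The 2 wild type mESC libraries held 5 and 39 reads of it. Without the first of them the change was -1.33 (limma adjusted p = 0.00386). In wild type CCE cells Wnt3a had 0.106 and 0.0306 RPKM in EBs against 0.772, 1.15 and 1.55 RPKM in mESCs, and it fell by 1.52 ± 0.20 log2 units (limma adjusted p = 7.62e-05). Only mESC libraries lifted Wnt3a over the filter on low values in the CCE line, so this call is not read as a result.

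The CCE wild type gave 8 rises and the fall of Wnt3a, at a background of 26.3% of genes called higher, 33.2% lower and 59.5% in either direction. Wnt3, Wnt8a, Lef1, Dkk1 and Lgr5 stayed under 0.25 RPKM in every CCE mESC library, so only EB libraries lifted them over the filter. Their rises could be tested only because they were high in EBs, and their calls are not read as results. Wnt5a rose in this line too, with 13.1 and 9.72 RPKM in EBs against 1.23, 0.410 and 0.245 RPKM in mESCs (3.48 ± 0.38). Sp5 did not pass the test there, with 1.86 and 2.56 RPKM in EBs against 1.81, 1.07 and 1.10 RPKM in mESCs (0.58 ± 0.29, limma adjusted p = 0.113), and the highest mESC library lay just under the lower EB library. The difference between the 2 lines was not tested.

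**Figure D1:**
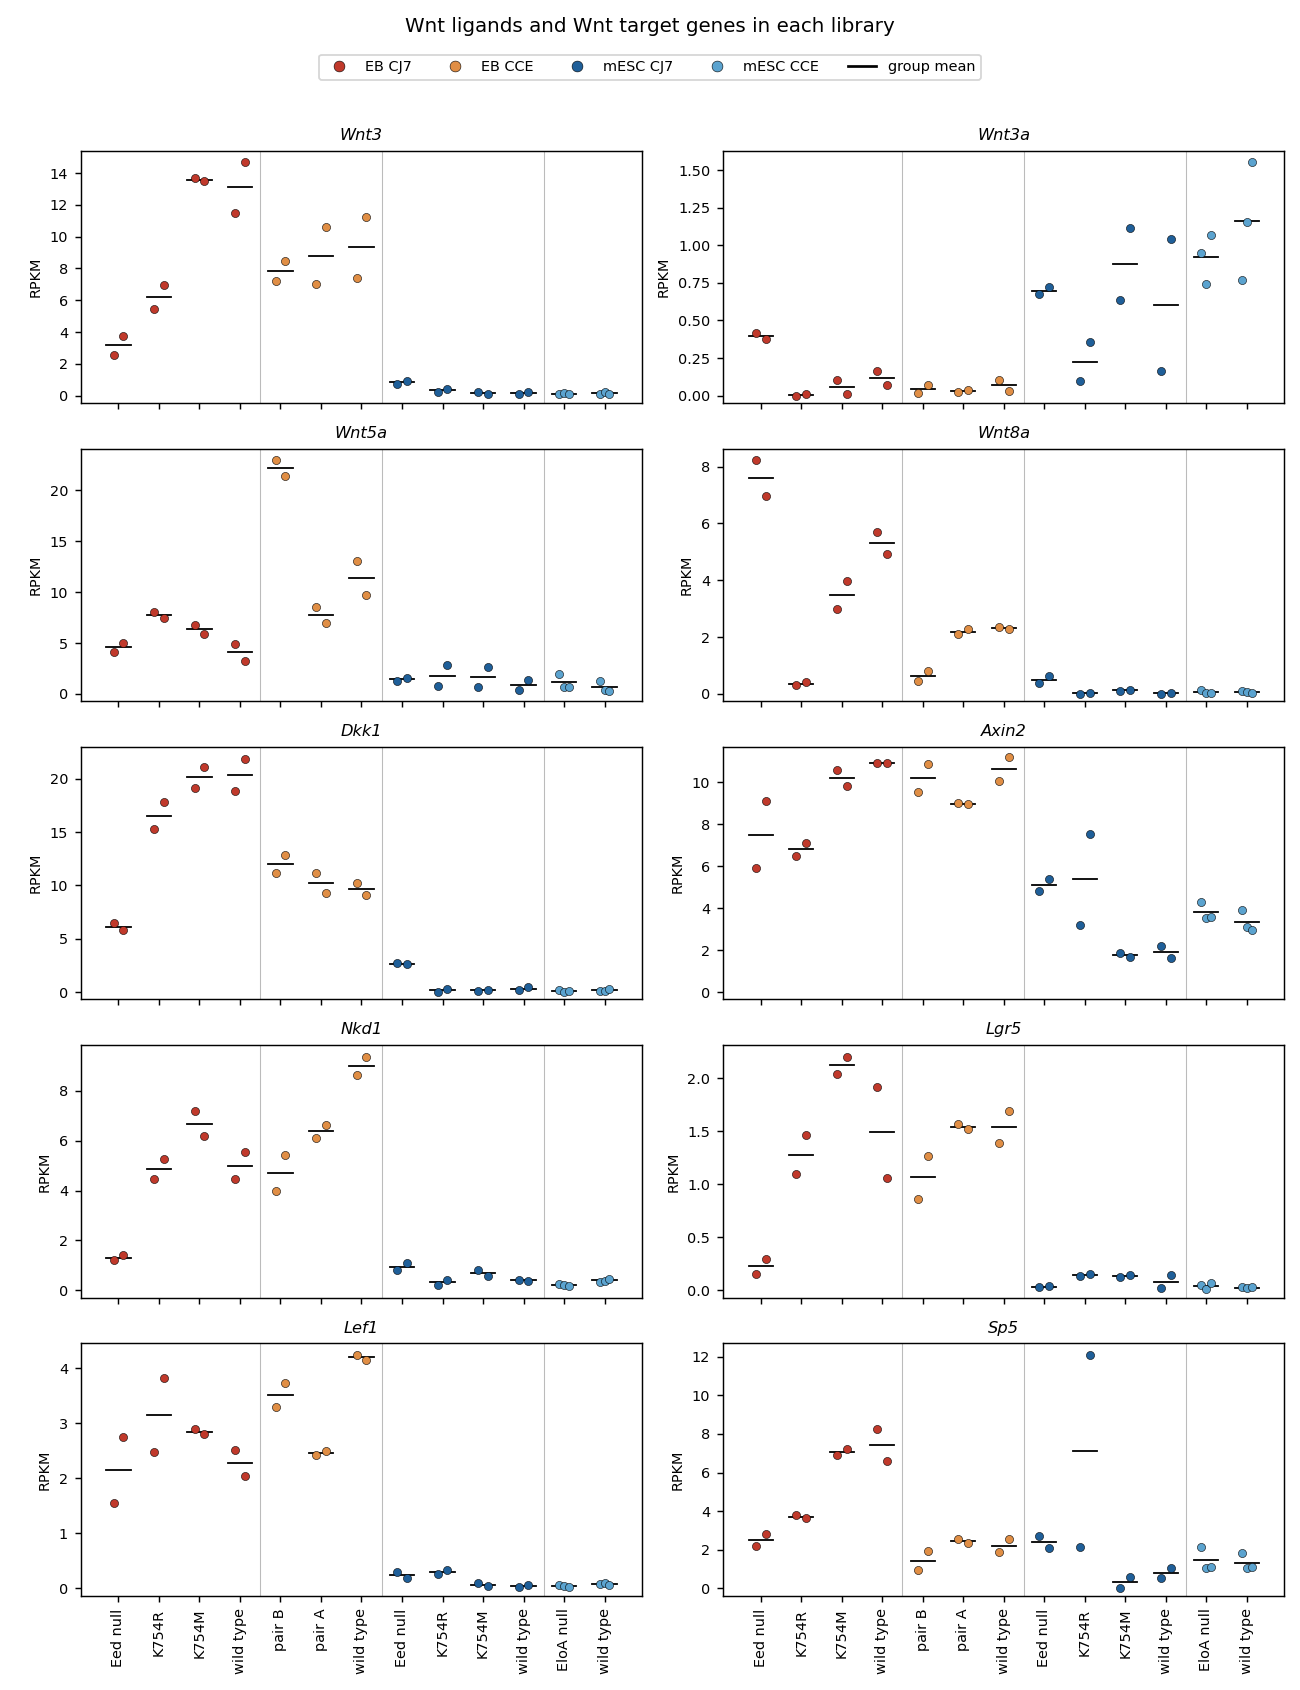
Each panel gives the RPKM of 1 gene (vertical axis, linear from 0, with its own scale) in every library, and a black bar marks the group mean. Groups run from EBs of CJ7 and CCE on the left to mESCs of CJ7 and CCE on the right, and Dkk1 reaches 21.9 RPKM in wild type CJ7 EBs while no mESC library exceeds 2.72 RPKM.

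Other genes of the pathway moved at the same transition in both directions. Of 81 listed pathway genes tested in wild type CJ7 cells 24 rose and 16 fell. Over all genes tested 17.2% were called higher and 25.2% lower. The median change of the listed genes was 0.10 log2 units, against -0.08 over all genes tested and 2.47 over the 10 genes described here. Of 13 other targets 8 rose and 1 fell. Brachyury (T), the T-box factor of the primitive streak, averaged 63.5 RPKM in EBs against 0.0905 RPKM in mESCs (6.75 ± 0.40), and Sp8, a relative of Sp5, averaged 7.99 RPKM against 0.319 RPKM (3.40 ± 0.29). Genes needed to secrete Wnt proteins also rose, namely Porcn, the enzyme that attaches a lipid to them (3.06 ± 0.37), and Wls, their carrier (1.98 ± 0.50). Among secreted inhibitors Frzb (4.48 ± 0.20) and Cer1 (4.38 ± 0.21) rose, while Dkk3 (-2.65 ± 0.28) was among 6 that fell.

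Eed null EBs had much less of 5 of the 10 genes, and these were ligand, inhibitors, receptor and transcription factor alike. Wnt3 had 2.56 and 3.76 RPKM in Eed null EBs against 11.5 and 14.7 RPKM in wild type EBs (-1.90 ± 0.21, limma adjusted p = 0.000622). Dkk1 had 6.46 and 5.80 RPKM in Eed null EBs against 18.9 and 21.9 RPKM in wild type EBs (-1.65 ± 0.14, limma adjusted p = 0.000191). Nkd1 had 1.20 and 1.41 RPKM in Eed null EBs against 4.47 and 5.53 RPKM in wild type EBs (-1.60 ± 0.17, limma adjusted p = 0.000635). For all 3 the higher Eed null library stayed well under the lower wild type library.

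Lgr5 had 0.151 and 0.297 RPKM in Eed null EBs against 1.92 and 1.06 RPKM in wild type EBs (-1.43 ± 0.25, limma adjusted p = 0.00526). Sp5 had 2.18 and 2.84 RPKM in Eed null EBs against 8.25 and 6.59 RPKM in wild type EBs (-1.40 ± 0.17, limma adjusted p = 0.00106). The groups did not overlap for either gene, as for 8 of the 10 genes in all and 59 of the 85 other pathway genes. The share without overlap over all genes was not counted in this or any other comparison. Such counts are therefore not read as results about the 10 genes. In this comparison 30.4% of the 19300 genes tested were called, 19.2% higher and 11.2% lower, and the 5 falls of 10 stand against the 11.2%. Each of the 5 was called under all 6 other settings and without any 1 of the 4 libraries.

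None of the other 5 genes was called lower, although both Eed null libraries of Axin2 lay below both wild type libraries. Axin2 had 5.92 and 9.10 RPKM in Eed null EBs against 10.9 and 10.9 RPKM in wild type EBs, and missed the threshold (-0.54 ± 0.19, limma adjusted p = 0.0702). It passed without the second Eed null library (-0.83, limma adjusted p = 0.00771). Lef1 had 1.55 and 2.74 RPKM in Eed null EBs against 2.51 and 2.04 RPKM in wild type EBs, with overlapping groups (-0.10 ± 0.27, limma adjusted p = 0.819). Wnt5a overlapped as well, at 4.14 and 5.05 RPKM in Eed null EBs against 4.88 and 3.26 RPKM in wild type EBs (0.17 ± 0.20, limma adjusted p = 0.555).

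The streak ligand Wnt8a went the other way from Wnt3 by value. It had 8.22 and 6.98 RPKM in Eed null EBs against 5.70 and 4.92 RPKM in wild type EBs, without overlap, and did not pass the test (0.48 ± 0.19, limma adjusted p = 0.0996). Wnt3a had 0.417 and 0.374 RPKM in Eed null EBs against 0.161 and 0.0678 RPKM in wild type EBs (0.55 ± 0.16, limma adjusted p = 0.0394). Only the Eed null libraries lifted Wnt3a over the filter on low values, so that it could be tested only because it was high there, and the call is not read as a result. It was lost with a pseudocount of 0.1 (limma adjusted p = 0.0788), in a fit of only these groups (limma adjusted p = 0.0896) and without either wild type library, where the change was 0.44 and 0.66.

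Several marker lists moved with these values and others did not. The 8 pluripotency markers summed to 715 to 774 RPKM in Eed null EBs against 103 to 124 RPKM in wild type EBs, the 8 primitive streak and mesoderm markers to 35.7 to 36.3 RPKM against 125 to 142 RPKM, and the 8 visceral endoderm markers to 304 to 330 RPKM against 62.1 to 65.3 RPKM. No marker of the 3 lists was at 0 in these libraries. The 10 fibroblast markers summed to 92.7 to 116 RPKM in Eed null EBs against 245 to 250 RPKM in wild type EBs, where Vim averaged 169 RPKM and Fn1 73.6 RPKM of that sum and Lum was at 0 in both libraries. The 4 primed epiblast markers summed to 60.6 to 109 RPKM in Eed null EBs against 105 to 109 RPKM in wild type EBs. The 4 neuroectoderm markers summed to 6.83 to 8.13 RPKM against 6.83 to 10.5 RPKM, and both lists overlapped. The neuroectoderm sum was mostly Nes in both stages, at 4.21 to 11.2 RPKM in EBs and 2.36 to 21.4 RPKM in mESCs. In EBs Pax6, Zic1 and Hes5 reached at most 0.293, 1.01 and 0.176 RPKM, so this sum says little about neuroectoderm. The part of these lists in the Wnt gene differences was not tested.

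**Figure D2:**
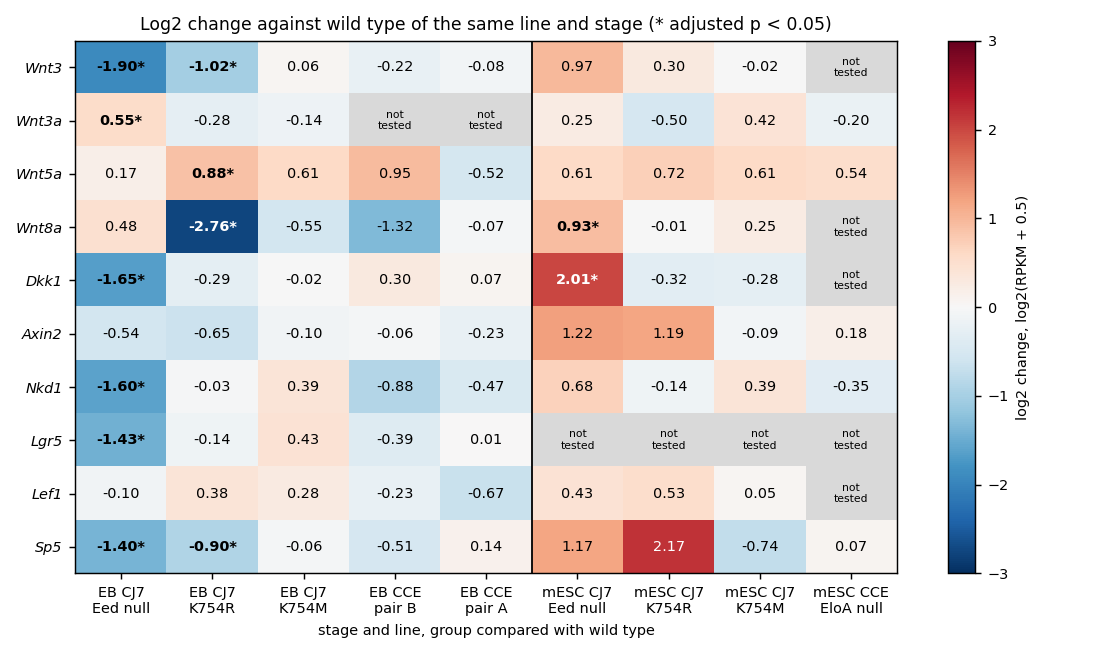
Colour and number give the log2 change of each gene (rows) against wild type of the same line and stage, for 5 EB groups left of the black line and 4 mESC groups right of it. Asterisks mark an adjusted p below 0.05, grey cells did not pass the filter on low values, and the 5 falls in Eed null EBs lie between -1.90 and -1.40.

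Of 73 other pathway genes tested in Eed null EBs 18 rose and 12 fell, where 19.2% of all genes were called higher and 11.2% lower. Their median change was 0.15 log2 units against 0.05 over all genes and -0.97 over the 10 genes. Of 11 other ligands 4 rose and 2 fell. Wnt7b averaged 6.01 RPKM in Eed null EBs against 0.200 RPKM in wild type EBs (3.21 ± 0.21) and Wnt6 averaged 5.01 RPKM against 0.848 RPKM (2.08 ± 0.34), while Wnt2 averaged 0.255 RPKM against 2.00 RPKM (-1.70 ± 0.24). Of 12 other targets 3 rose and 4 fell. Apcdd1, an inhibitor at the cell surface, fell by 1.64 ± 0.15, and the BMP and Activin pseudoreceptor Bambi by 1.37 ± 0.30, although the Bambi call was lost without the first wild type library or without the filter. The homeobox gene Cdx1 averaged 2.49 RPKM in Eed null EBs against 0.0360 RPKM in wild type EBs (2.40 ± 0.29), and only the Eed null libraries lifted it over the filter. Among receptors Lgr4 rose by 1.27 ± 0.18 and Fzd2 fell by 1.24 ± 0.16. The secreted inhibitor Cer1 averaged 0.849 RPKM in Eed null EBs against 11.1 RPKM in wild type EBs (-3.11 ± 0.19). Notum, an enzyme that removes the lipid from Wnt proteins, rose by 1.78 ± 0.21. With 1 library left out 19 to 24 pathway genes were called, 19 without the second wild type library, against 30 in the full fit.

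Eed null mESCs already carried more Dkk1 than wild type. It had 2.72 and 2.62 RPKM in Eed null mESCs against 0.149 and 0.455 RPKM in wild type mESCs, which is 92 and 86 reads against 4 and 15, without overlap (2.01 ± 0.31, limma adjusted p = 0.0153). Wnt8a had 0.370 and 0.636 RPKM in Eed null mESCs, or 9 and 15 reads, against 0 and 0.0422 RPKM in wild type mESCs, or 0 and 1 read (0.93 ± 0.22, limma adjusted p = 0.0489). The fitted change was 2.30 with a pseudocount of 0.1 and 0.55 with a pseudocount of 1, neither of them called. Only the Eed null libraries lifted Wnt8a over the filter, and leaving out 1 of them left it untested, so its call is not counted here. Dkk1 was the 1 call among the other 8 genes tested, at a background of 5.32% of 21012 genes called higher, 3.27% lower and 8.59% in either direction. Both calls rest on few libraries. Dkk1 was called without the second wild type library (2.29, limma adjusted p = 0.0483) and lost without any of the other 3, at changes from 1.73 to 2.03, with a pseudocount of 0.1 (limma adjusted p = 0.0661) and without the filter (limma adjusted p = 0.0543). Wnt8a was lost without either wild type library, at changes of 0.87 and 0.99.

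Several further genes were higher in both Eed null mESC libraries than in both wild type libraries and did not pass the test. Called or not, the groups did not overlap for 7 of the 10 genes and 53 of the 85 other pathway genes. Wnt3 had 0.746 and 0.913 RPKM in Eed null mESCs against 0.118 and 0.239 RPKM in wild type mESCs (0.97 ± 0.25, limma adjusted p = 0.0627). Axin2 had 4.81 and 5.39 RPKM in Eed null mESCs against 2.20 and 1.63 RPKM in wild type mESCs (1.22 ± 0.37, limma adjusted p = 0.0952). Sp5 had 2.70 and 2.11 RPKM in Eed null mESCs against 0.559 and 1.05 RPKM in wild type mESCs (1.17 ± 0.73, limma adjusted p = 0.36). A fit of the Eed null and wild type libraries alone called all 3, with limma adjusted p = 0.0369, 0.0208 and 0.0455. The full fit also holds the K754R libraries, with 2.15 and 12.1 RPKM of Sp5, and the K754M libraries, with 0.0378 and 0.591 RPKM.

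Among the other pathway genes 8 rose and 1 fell of 75 tested in Eed null mESCs. Over all genes 5.32% were called higher and 3.27% lower. Cdx1 averaged 16.5 RPKM in Eed null mESCs against 1.87 RPKM in wild type mESCs (2.85 ± 0.22), Cdx2 averaged 3.68 RPKM and stood at 0 in each of the wild type libraries, and Apcdd1 averaged 9.9996 RPKM against 2.59 RPKM (1.76 ± 0.18). Apcdd1 thus lay above wild type in Eed null mESCs and below it in Eed null EBs, as did Dkk1. Without 1 library the count of 9 calls fell to between 1 and 3, at 1 without either Eed null library, 2 without the first wild type library and 3 without the second. Cdx1 was called each time. In these mESC libraries the primitive streak and mesoderm markers summed to 18.8 to 20.8 RPKM in Eed null against 7.09 to 9.64 RPKM in wild type, the visceral endoderm markers to 4.66 to 5.01 RPKM against 1.49 to 1.96 RPKM, the 4 primed epiblast markers to 34.3 to 37.2 RPKM against 11.6 to 16.5 RPKM and the 4 neuroectoderm markers to 14.9 to 15.5 RPKM against 16.7 to 21.6 RPKM. The fibroblast and pluripotency sums overlapped. Their part in the mESC differences was not tested.

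The stage difference was therefore compared between genotypes, as the EB minus mESC change in mutants less that in the wild type. In Eed null cells 4 of 10 genes rose in EBs (Wnt3, Wnt8a, Lef1 and Dkk1), at a background of 10.9% of genes called higher, 17.1% lower and 28.0% in either direction. Wnt3 rose by 1.44 ± 0.23 in Eed null cells against 4.32 ± 0.23 in wild type cells. Dkk1 rose by 1.06 ± 0.24 in Eed null cells against 4.73 ± 0.24 in wild type cells, and its call in Eed null cells was lost with a pseudocount of 0.1 (1.17, limma adjusted p = 0.124). Nkd1 changed by 0.33 ± 0.21 in Eed null cells, which did not pass the test, against 2.61 ± 0.21 in wild type cells.

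The difference of these changes was itself below 0 and called for 5 genes: Dkk1 (-3.66 ± 0.34, limma adjusted p = 5.19e-05), Wnt3 (-2.88 ± 0.33, limma adjusted p = 0.000208), Nkd1 (-2.28 ± 0.30, limma adjusted p = 0.00052), Axin2 (-1.76 ± 0.43, limma adjusted p = 0.0189) and Lgr5 (-1.31 ± 0.32, limma adjusted p = 0.0193). The background was 8.09% of 22818 genes called above 0, 6.58% below 0 and 14.7% in either direction. Dkk1, Wnt3 and Nkd1 were called without any 1 of the 8 libraries. The Axin2 call was kept without 2 of the 8, the second Eed null EB library and the first wild type mESC library, and the Lgr5 call without 3 of them. The Lgr5 call was also lost with a pseudocount of 0.1 (-1.89, limma adjusted p = 0.0585). Only EB libraries lifted Lgr5 over the filter, so its call is not read as a result. Sp5 had a difference of -2.57 ± 0.80 and missed the threshold (limma adjusted p = 0.0526). Wnt8a rose by 3.02 ± 0.21 in Eed null cells and by 3.48 ± 0.21 in wild type cells, a difference of -0.46 ± 0.29 that did not pass (limma adjusted p = 0.354). With a pseudocount of 0.1 it was -1.80 and passed (limma adjusted p = 0.0339). Lef1 differed by -0.53 ± 0.36 (limma adjusted p = 0.374).

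**Figure D3:**
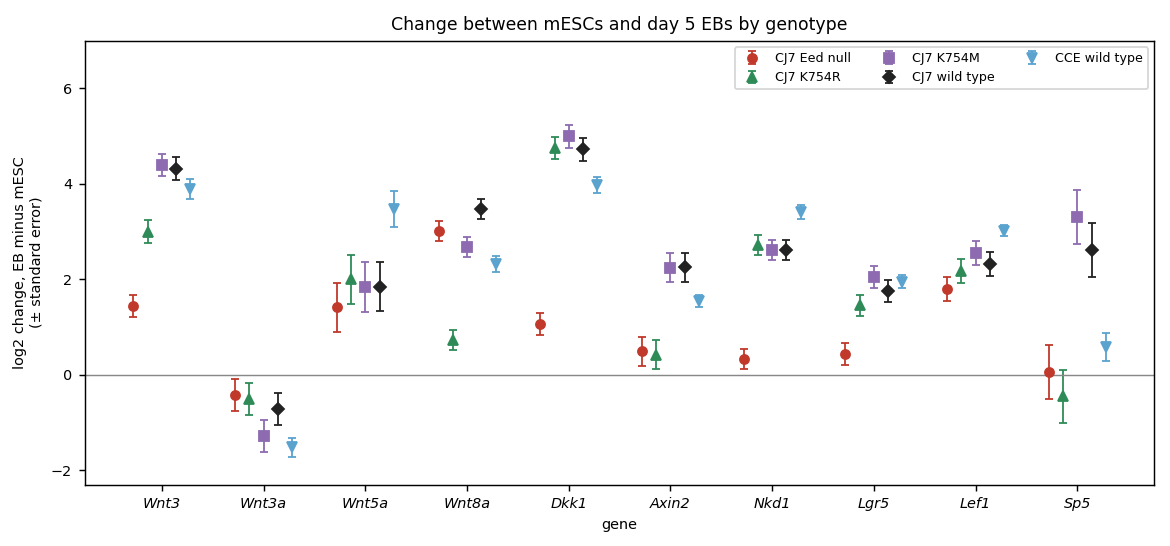
Points give the log2 change between EBs and mESCs of each gene (EB minus mESC, vertical axis) in the CJ7 Eed null, K754R, K754M and wild type cells and in CCE wild type cells, and bars are standard errors of the limma fit. The Eed null points for Wnt3, Dkk1, Nkd1, Axin2 and Lgr5 lie below the wild type points, and the K754R point for Wnt8a lies at 0.73 against 3.48 in the wild type.

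K754R EBs had very little Wnt8a. It had 0.2999 and 0.413 RPKM in K754R EBs, or 15 and 23 reads, against 5.70 and 4.92 RPKM in wild type EBs (-2.76 ± 0.19, limma adjusted p = 0.00116). The call held under all 6 other settings and without any 1 library. Wnt3 had 5.46 and 6.93 RPKM in K754R EBs against 11.5 and 14.7 RPKM in wild type EBs (-1.02 ± 0.21, limma adjusted p = 0.0269), and Sp5 had 3.78 and 3.66 RPKM in K754R EBs against 8.25 and 6.59 RPKM in wild type EBs (-0.90 ± 0.17, limma adjusted p = 0.0229). None of these groups overlapped, as for 7 of the 10 genes in all and 54 of the 85 other pathway genes.

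Wnt5a rose in K754R EBs, with 8.05 and 7.50 RPKM against 4.88 and 3.26 RPKM in wild type EBs (0.88 ± 0.20, limma adjusted p = 0.0380). The 4 calls stand against 9.68% of all genes called, 4.82% higher and 4.85% lower. Leaving out 1 library left 1 to 3 of them. Wnt8a was the 1 call without either K754R library or without the second wild type library. Sp5 was lost whichever library was left out, at changes from -1.05 to -0.75, while Wnt3 and Wnt5a were kept without the first wild type library. Wnt3, Sp5 and Wnt5a were lost without the filter on low values, and Wnt5a also in a fit of only these groups.

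Lgr5, Nkd1, Dkk1 and Lef1 gave no call in K754R EBs. This comparison shares its wild type libraries with that of Eed null EBs. Nkd1 had 4.47 and 5.27 RPKM in K754R EBs against 4.47 and 5.53 RPKM in wild type EBs (-0.03 ± 0.17), Dkk1 had 15.3 and 17.8 RPKM against 18.9 and 21.9 RPKM (-0.29 ± 0.14), and Lgr5 had 1.10 and 1.46 RPKM against 1.92 and 1.06 RPKM (-0.14 ± 0.25). Axin2 had 6.498 and 7.10 RPKM in K754R EBs against 10.9 and 10.9 RPKM in wild type EBs, without overlap, and missed the threshold (-0.65 ± 0.19, limma adjusted p = 0.0759).

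The substitution of the same lysine by methionine gave no call among the 10 genes in EBs, at a background of 0.565% of genes called, 0.181% higher and 0.383% lower. Wnt8a had 3.00 and 3.96 RPKM in K754M EBs against 5.70 and 4.92 RPKM in wild type EBs (-0.55 ± 0.19, limma adjusted p = 0.238), and Wnt5a had 6.78 and 5.93 RPKM in K754M EBs against 4.88 and 3.26 RPKM in wild type EBs (0.61 ± 0.20, limma adjusted p = 0.223). Both were without overlap between the groups, as were 6 of the 10 genes in all and 44 of the 85 other pathway genes. The share without overlap over all genes was not counted. The remaining 8 changes lay between -0.14 and 0.43 log2 units, and 2934 of all 19300 genes had an unadjusted p below 0.05. A missed threshold with 2 libraries per group does not show that the genes were alike.

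The substitutions differed from each other in 3 genes, all lower in K754R EBs than in K754M EBs, at a background of 3.62% of genes called, 1.72% higher and 1.90% lower. Wnt8a differed by -2.21 ± 0.19 (limma adjusted p = 0.00446), Wnt3 by -1.08 ± 0.21 (limma adjusted p = 0.0377) and Sp5 by -0.84 ± 0.17 (limma adjusted p = 0.0461). Wnt8a stayed called whichever of the 4 libraries was left out, and Wnt3 and Sp5 were lost each time and without the filter.

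Among the other pathway genes 11 rose and 3 fell of 73 in K754R EBs, with a median of 0.15 log2 units against 0.01 over all genes. Over all genes 4.82% were called higher and 4.85% lower. The 2 falls among targets were of streak and tail bud genes: T averaged 10.496 RPKM in K754R EBs against 63.5 RPKM in wild type EBs (-2.54 ± 0.16), and Sp8 averaged 0.862 RPKM against 7.99 RPKM (-2.65 ± 0.27). Receptors rose in 6 of 16 cases, led by Fzd5 (21.4 RPKM in K754R EBs against 4.33 RPKM in wild type EBs, 2.17 ± 0.25), and the secreted inhibitors Sfrp1 (2.22 ± 0.25), Sfrp5 (1.74 ± 0.17) and Dkk3 (1.74 ± 0.25) rose. Leaving out 1 library cut the 14 calls to 5 without either K754R library or the second wild type library. T, Sp8, Fzd5, Sfrp1 and Sfrp5 were called each time. No pathway gene was called in K754M EBs.

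The pluripotency markers summed to 16.3 to 21.0 RPKM in K754R EBs and to 147 to 153 RPKM in K754M EBs, against 103 to 124 RPKM in wild type EBs. The streak and mesoderm list summed to 116 to 140 RPKM in K754R EBs and to 163 to 165 RPKM in K754M EBs, against 125 to 142 RPKM in wild type EBs, so it did not separate K754R from wild type while T did. The fibroblast list summed to 382 to 408 RPKM in K754R EBs and to 421 to 424 RPKM in K754M EBs, against 245 to 250 RPKM in wild type EBs, and so moved without overlap beside the rise of Wnt5a. The primed epiblast list summed to 132 to 147 RPKM in K754R EBs and to 124 to 137 RPKM in K754M EBs, against 105 to 109 RPKM in wild type EBs. In K754R EBs the visceral endoderm list was higher, at 83.2 to 85.1 RPKM against 62.1 to 65.3 RPKM in wild type EBs. The neuroectoderm sum, mostly Nes, was lower in K754R EBs, at 4.28 to 4.38 RPKM against 6.83 to 10.5 RPKM. In K754M EBs both overlapped with wild type. The part of these lists in the results was not tested.

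Wnt8a also set K754R apart in the stage change. It rose by 0.73 ± 0.21 in K754R cells against 3.48 ± 0.21 in wild type cells, a difference of -2.75 ± 0.29 (limma adjusted p = 0.00172) that held without any 1 of the 8 libraries. It was the 1 call of 10, at a background of 2.03% of genes, 0.898% above 0 and 1.13% below 0. Axin2 (-1.83 ± 0.43, limma adjusted p = 0.0557) and Sp5 (-3.07 ± 0.80, limma adjusted p = 0.0814) were called as well without the first K754R mESC library, at -2.39 and -4.20. In K754R cells 7 of 10 genes rose in EBs, at 17.8% of genes called higher, 25.9% lower and 43.7% in either direction, and Axin2, Sp5 and Wnt3a did not pass. Lgr5 is among the 7, and its call is not read as a result because only EB libraries lifted it over the filter. The Wnt8a call in K754R cells was lost with a pseudocount of 1, without the second K754R EB library (0.63) or without the first K754R mESC library (0.68), and the Wnt5a call without that mESC library (1.32). In K754M cells 9 rose, again with Lgr5 among them, and Wnt3a fell (-1.29 ± 0.34), at 15.8% of genes called higher, 24.9% lower and 40.7% in either direction. The Wnt3a fall was lost without the second K754M library of either stage, and the Wnt5a rise without either K754M EB library or the first K754M mESC library. None of the 10 stage changes was called as different from the wild type by limma, at 0.193% of genes (0.092% above 0 and 0.101% below 0), with 2054 genes at an unadjusted p below 0.05. The median change of all genes was -0.14 in K754M and -0.10 in K754R cells, which is small against these values.

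In mESCs neither substitution gave a call among the 9 genes tested. The K754M comparison had 0 of 21012 genes called by limma, with 2103 at an unadjusted p below 0.05, and the K754R comparison 0.162% called, 0.0761% higher and 0.0857% lower, with 3000 genes at an unadjusted p below 0.05. Axin2 had 3.21 and 7.54 RPKM in K754R mESCs against 2.20 and 1.63 RPKM in wild type mESCs (1.19 ± 0.37, limma adjusted p = 0.225), and Sp5 had 2.15 and 12.1 RPKM in K754R mESCs against 0.559 and 1.05 RPKM in wild type mESCs (2.17 ± 0.73, limma adjusted p = 0.253). Both genes were highest in the second K754R library, with 463 reads of Sp5 against 51 in the first.

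That library also had the highest sum of fibroblast markers. The 10 markers summed to 566 and 1478 RPKM in K754R mESCs, 441 and 916 RPKM in K754M mESCs, 527 and 732 RPKM in Eed null mESCs, and 480 and 577 RPKM in wild type CJ7 mESCs. In the CCE line they summed to 953, 451 and 558 RPKM in EloA null mESCs and 680, 322 and 276 RPKM in wild type mESCs. In all 6 mESC groups Wnt5a ranked the libraries in the same order as this sum. It had 0.794 and 2.80 RPKM in K754R mESCs, 0.662 and 2.63 RPKM in K754M mESCs, 1.23 and 1.60 RPKM in Eed null mESCs, and 0.347 and 1.35 RPKM in wild type CJ7 mESCs. It had 1.96, 0.695 and 0.720 RPKM in EloA null mESCs against 1.23, 0.410 and 0.245 RPKM in wild type CCE mESCs. Wnt8a, at 0.636 RPKM or less, followed the order in all 6 groups too, Wnt3a, Axin2, Sp5, Dkk1 and Lgr5 in 4, Wnt3 in 3, and Lef1 and Nkd1 in 2. In each CJ7 group the second library had the higher sum, and in each CCE group the first had the highest. The 6 groups may therefore not be independent. How many of all genes follow the order was not counted. The part of fibroblasts in these mESC values was not tested. In EBs 3 of the 10 markers, the collagen genes, lay below every mESC library: Col1a1 at 0.209 to 8.24 RPKM in EBs against 20.2 to 140 RPKM in mESCs, Col1a2 at 0.381 to 1.89 RPKM against 16.1 to 218 RPKM, and Col3a1 at 0.0096 to 5.44 RPKM against 8.17 to 181 RPKM. The other 7 overlapped between the stages, among them Acta2 at 0.743 to 49.97 RPKM in EBs against 31.4 to 248 RPKM in mESCs and Postn at 0.0788 to 12.2 RPKM against 5.09 to 108 RPKM. Wnt5a was at 3.26 to 23.0 RPKM in EBs, and the part of fibroblast-like cells in its EB values was not tested either.

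**Figure D4:**
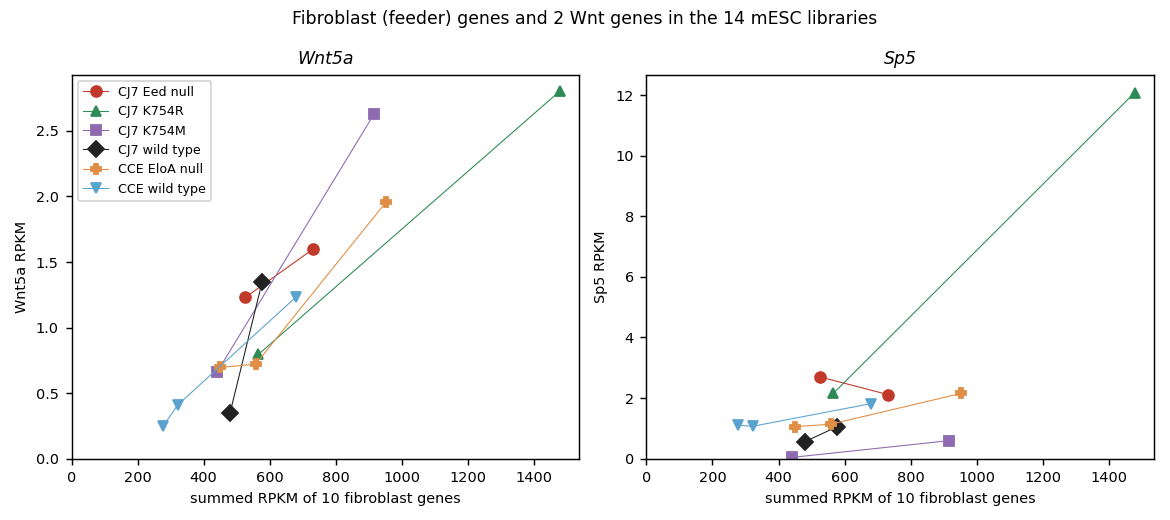
Each point is 1 of the 14 mESC libraries, with the summed RPKM of the 10 fibroblast markers on the horizontal axis and the RPKM of Wnt5a (left) or Sp5 (right) on the vertical axis, and lines join the libraries of a group. Wnt5a is higher in the library with the higher sum in every group, and the K754R library at 1478 RPKM has 12.1 RPKM of Sp5.

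In CCE mESCs labelled EloA null, where Tceb3 was lower and not absent, none of the 5 genes that passed the filter was called (Wnt3a, Wnt5a, Axin2, Sp5 and Nkd1), at a background of 3.35% of 18460 genes, 2.12% higher and 1.23% lower. Nkd1 had 0.239, 0.195 and 0.175 RPKM in EloA null mESCs against 0.343, 0.380 and 0.465 RPKM in wild type mESCs, without overlap (-0.35 ± 0.13, limma adjusted p = 0.247). Axin2 had 4.27, 3.55 and 3.60 RPKM in EloA null mESCs against 3.92, 3.11 and 2.94 RPKM in wild type mESCs (0.18 ± 0.13, limma adjusted p = 0.526). Libraries with the same number deviated together in this comparison, and with the number as a block 2288 genes (12.4%) were called in place of 619, again with none of the 5. Wnt5a then came closest (0.54 ± 0.12, limma adjusted p = 0.0556). The fibroblast marker Vim, whose part in that value was not tested, was higher in EloA null mESCs in the same fit (0.61 ± 0.08, limma adjusted p = 0.0176). Of 66 other pathway genes Apcdd1 fell (2.69 RPKM in EloA null mESCs against 3.74 RPKM in wild type mESCs, -0.41 ± 0.08), a call lost without any 1 library. With the block 8 of them were called.

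In CCE EBs Wnt5a was the 1 gene called between the 2 pairs with contradictory labels. It had 23.0 and 21.4 RPKM in pair B against 8.54 and 6.98 RPKM in pair A (1.46 ± 0.18, limma adjusted p = 0.0487), of 9 genes tested, at a background of 0.440% of 17735 genes, 0.344% higher and 0.0959% lower. The call was lost without any 1 of the 4 libraries, at changes from 1.33 to 1.60, and with a pseudocount of 0.1, without the filter, with median-ratio scaling or in a fit of only these groups, at limma adjusted p from 0.0553 to 0.126. Wild type EBs lay between the pairs, at 13.1 and 9.72 RPKM, and pair B against wild type did not pass (0.95 ± 0.18, limma adjusted p = 0.0969). Wnt8a had 0.465 and 0.813 RPKM in pair B against 2.34 and 2.28 RPKM in wild type EBs (-1.32 ± 0.21, limma adjusted p = 0.0703), and 2.10 and 2.28 RPKM in pair A, from which pair B differed by -1.26 ± 0.21 (limma adjusted p = 0.0707). Nkd1 had 3.98 and 5.43 RPKM in pair B and 6.10 and 6.65 RPKM in pair A, against 8.63 and 9.37 RPKM in wild type EBs, where pair B differed from wild type by -0.88 ± 0.17 (limma adjusted p = 0.107). For each of the 3 genes pair B did not overlap with the wild type, as for 6 of the 10 genes in all and 34 of the 85 other pathway genes.

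Neither pair had a call against wild type among the 9 genes tested, at 0.135% of genes called for pair B, 0.107% higher and 0.0282% lower. With the replicate number as a block Wnt5a, Wnt8a and Nkd1 were called in pair B against wild type. Whether that number pairs these libraries is not stated in the labels. For pair A 0 of 17735 genes were called by limma, with 1166 at an unadjusted p below 0.05. Between the pairs Lgr4 (1.06 ± 0.12) and Dkk3 (1.21 ± 0.13) were higher and Cer1 (-2.93 ± 0.24) was lower in pair B, each call lost without any 1 library, with a pseudocount of 0.1, with median-ratio scaling or in a fit of only these groups. The fibroblast list summed to 587 to 593 RPKM in pair B and 343 to 366 RPKM in pair A, against 420 to 511 RPKM in wild type EBs. The primed epiblast list summed to 25.9 to 39.5 RPKM in pair B and 50.01 to 54.9 RPKM in pair A, against 35.7 to 46.1 RPKM in wild type EBs. Visceral endoderm sums were 54.4 to 64.3 RPKM in pair B, 52.2 to 54.9 in pair A and 39.7 to 41.2 in wild type. Neuroectoderm sums, again mostly Nes, were 5.12 to 5.34 RPKM in pair B, 5.74 to 5.98 in pair A and 7.86 to 8.09 in wild type. Streak and mesoderm sums were 117 to 123 RPKM in pair B and 117 to 146 in pair A. In wild type they were 139 to 169 RPKM. Pluripotency sums overlapped between the groups. The part of these lists in the Wnt5a difference was not tested.

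Ordered by group mean, Wnt3 was highest in K754M EBs (13.6 ± 0.14 RPKM, SD, n = 2) and wild type CJ7 EBs (13.1 ± 2.24 RPKM, SD, n = 2), which overlapped. The 3 CCE EB groups followed at 7.83 to 9.33 RPKM and overlapped with each other, then K754R EBs (6.20 ± 1.04 RPKM, SD, n = 2) and Eed null EBs (3.16 ± 0.84 RPKM, SD, n = 2), each apart from its neighbours. Eed null mESCs (0.830 ± 0.12 RPKM, SD, n = 2) led the mESC groups, apart from the others. Dkk1 had the same ends: wild type and K754M CJ7 EBs overlapped at the top, at 20.4 ± 2.11 and 20.1 ± 1.36 RPKM (SD, n = 2 each), Eed null EBs were the lowest EB group at 6.13 ± 0.47 RPKM (SD, n = 2), and Eed null mESCs were the highest mESC group at 2.67 ± 0.07 RPKM (SD, n = 2). Wnt5a and Wnt8a ranked the EB groups otherwise, with pair B highest in Wnt5a and Eed null EBs highest in Wnt8a.

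Among 11317 genes with a group mean of at least 5 RPKM somewhere, those whose log2(RPKM + 0.5) followed Wnt3 most closely over the 13 group means were Slc15a2, a peptide transporter (Pearson r = 0.993), Vrtn (0.990), 3110003A17Rik (0.986), the streak homeobox gene Evx1 (0.984) and the chemokine receptor gene Cxcr4 (0.982). The closest to Axin2 were Chst7 (0.950), Zfp787 (0.948), Tmem176b (0.947), Nenf (0.945) and Extl2 (0.945). These are descriptions over 13 means that share stage, line and libraries, and the stage alone gives many genes a high value.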

How the data were processed

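RNA depleted of ribosomal RNA was sequenced from 28 libraries in 13 groups. The authors deposited 1 RPKM value per gene and library, in a table for mESCs and another for EBs. CASAVA 1.7, STAR and build mm9 appear in the submitters' processing notes. The read counter, the annotation release and the handling of strand are not stated there or in the labels, so reads shared with an overlapping antisense gene cannot be told apart. At GENCODE M21 exon lengths 39.4% to 45.5% of values under 0.3 RPKM in a library lay within 0.02 of a whole number of reads, in both tables, which gave depth and read numbers and allowed the stages to be compared. Read numbers cover counting error only.

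Groups follow the labels, except for the CCE EB pairs. Tests were limma-trend (limma 3.58.1, R 4.3.3) on log2(RPKM + 0.5) for genes with 0.25 RPKM in at least 2 libraries of a fit, with 1 fit per line and stage and 1 per line over both stages. The 19 comparisons were each adjusted by the Benjamini-Hochberg method over all genes tested, and called at 0.05. The script was tested on simulated data. Alternatives were pseudocounts of 0.1 and 1, no filter, median-ratio scaling, a replicate block, fits of only the groups compared and leaving out each library. The CCE mESC replicate numbers come from the labels, and same-numbered libraries of EloA null and wild type deviated together (r = 0.512, 0.216 and 0.242), so the block result is given there too. Whether a number marks a shared culture or day is not stated in the labels. All 10 genes are named throughout, of the 85 other pathway genes up to 3 called per role with the largest change, and for Wnt3 and Axin2 the 5 genes most like them. The genes and lists were chosen with earlier results of these data known. Python 3.11.15 with pandas 2.3.3 made the tables, and matplotlib 3.10.9 the figures.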

Additional observations from a re-analysis of the deposited data

Results flagged for a closer look

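The change from mESCs to EBs differed between Eed null and wild type CJ7 cells, by a test of the difference itself, for Wnt3 (-2.88 log2 units), Axin2 (-1.76), Dkk1 (-3.66), Nkd1 (-2.28) and Lgr5 (-1.31). It differed between K754R and wild type CJ7 cells for Wnt8a (-2.75). For Dkk1 and Wnt3 both stages entered by value, with higher mESC means and lower EB means in Eed null cells: Dkk1 averaged 2.67 RPKM in Eed null mESCs against 0.302 RPKM in wild type mESCs and 6.13 RPKM in Eed null EBs against 20.4 RPKM in wild type EBs. For Lgr5 the mESC values were at most 0.142 RPKM in both genotypes, and for Wnt8a in K754R cells they were 0 and 0.0315 RPKM against 0 and 0.0422 RPKM in wild type, so there the difference lay in EBs. Only EB libraries lifted Lgr5 over the filter on low values, so its call is not read as a result.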

How the results depend on the processing

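Over the 10 genes and 19 comparisons, 61 values were called and 118 were tested and not called. No called value changed sign under any setting run, while 83 uncalled values did, 8 of them outside leave-one-out. Counts of called genes moved by more than 1.5 times in these cases. K754R against wild type EBs gave 1 in place of 4 without a filter and 1 to 3 without 1 library, and K754R against K754M EBs gave 1 in place of 3 without a filter and 1 without any 1 library. Eed null against wild type mESCs gave 0 in place of 2 with a pseudocount of 0.1, 1 with a pseudocount of 1, 1 without a filter, 5 in a fit of only these groups and 0 to 1 without 1 library. Pair B against pair A gave 0 in place of 1 with a pseudocount of 0.1, without a filter, with median-ratio scaling, in a fit of only these groups and without any 1 library. The difference in stage change gave 3 to 5 in place of 5 for Eed null and 1 to 3 in place of 1 for K754R without 1 library. Of the other pathway genes, K754R against wild type EBs called 9 without a filter, K754R against K754M EBs 5 in place of 8 without a filter, EloA null mESCs 0 in place of 1 with a pseudocount of 1 or median-ratio scaling, and pair B against pair A 0 in place of 3 with a pseudocount of 0.1, median-ratio scaling or a fit of only these groups and 1 without a filter. The difference in stage change for K754R called 1 in place of 7 in a fit of only these groups, and that for K754M 1 in place of 0 without a filter. Eed null mESCs called 6 in place of 9 without a filter, where Wnt7b, Porcn, Fzd3 and Cdx2 were lost. Without 1 library these pathway counts were 19 to 24 in place of 30 for Eed null and 5 to 15 in place of 14 for K754R EBs, 1 in place of 8 for K754R against K754M EBs, 1 to 3 for Eed null mESCs, 0 for pair B against pair A, and 9 to 15 in place of 16 for Eed null and 2 to 10 in place of 7 for K754R in the difference in stage change. Leaving out a library lowers the number of samples, and for the other settings the cause was not tested. A leave-one-out fit with 1 library in a group assumes that it varies like the other groups.

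With the replicate number as a block, pair B against wild type gave 3 called genes in place of 0 (Wnt5a, Wnt8a and Nkd1) and pair B against pair A gave 2 in place of 1. The counts of the other 17 comparisons stayed within 1.5 times, with 6 for Eed null against wild type EBs and 0 in CCE mESCs. Other pathway genes called with the block were 24 in place of 14 for K754R against wild type EBs, 1 in place of 0 for K754M against wild type EBs, 4 in place of 0 for pair B against wild type and 9 in place of 3 for pair B against pair A. Outside CCE mESCs groups shared only 2 numbers, with correlations of same-numbered libraries from 0.015 to 0.447, against 0.216 to 0.512 in CCE mESCs. These ranges overlap, and the labels do not say what a number marks. Whether same-numbered libraries are paired therefore cannot be told.

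Depth limits the low genes. In CJ7 mESCs 3 reads of Wnt8a are worth 0.094 to 0.155 RPKM, so differences among the K754R, K754M and wild type libraries below that level were not detectable.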
